A study of Mus musculus with 2 samples.

Results

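miR-122 is the microRNA best known from hepatocytes, and it was measured here as its 2 arms, mmu-miR-122-5p and mmu-miR-122-3p, written below as miR-122-5p and miR-122-3p. The members were taken by name, and 2 of the 197 named miRNA arms listed in the series carried one of these names. Both arms were listed in both libraries. Small RNA came from livers of wild-type C57BL/6 mice, 2 to 3 months old, with food always available, so the labels give 1 group of 2 replicate libraries and no treated or mutant group. The labels do not state whether each replicate was its own animal, and the spread between them may therefore be technical. Whole liver was used, so hepatocytes were mixed with the other cells of the organ, and fewer cells of a type and less RNA per cell cannot be told apart.

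A miRNA is cut from a hairpin precursor by Drosha and Dicer, and usually the strand from one side of the stem, the 5p or the 3p arm, is kept in an Argonaute protein while the other is degraded. The kept strand pairs with messenger RNAs through its seed, the bases near its 5′ end, and lowers their output. miR-122-5p is the kept strand of its hairpin in liver, its gene is transcribed under hepatocyte factors such as HNF4A, and it is known for controlling cholesterol and fatty acid metabolism and for its use by hepatitis C virus. Its 3′ end is also known to be extended by the nucleotidyltransferase TENT2 (GLD-2), which affects its stability in liver.

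The miRNAs set beside miR-122 most often were miR-22-3p, the most counted miRNA of both libraries, and the hepatocyte-enriched miR-192-5p, miR-194-5p and miR-148a-3p. Their mature sequences, from RefSeq (GRCm38.p6; 4 of 4 matched by name), are shown so that their seeds can be compared, with bases 2 to 8 in capitals.

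miR-22-3p: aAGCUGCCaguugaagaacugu

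miR-192-5p: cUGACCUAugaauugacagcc

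miR-194-5p: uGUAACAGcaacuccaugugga

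miR-148a-3p: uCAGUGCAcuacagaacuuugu

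In GRCm38.p6 they lie at chr11:75463772-75463793 (plus strand), chr19:6264857-6264877 (plus), chr19:6264658-6264679 (plus) and chr6:51269829-51269850 (minus), in the order shown. Their seeds differ from one another. Among the 197 named arms there were 165 distinct seeds, and 47 arms shared theirs with at least 1 other arm. No other listed arm had the seed of miR-122-5p, and none had the seed of miR-122-3p. All 4 arms shown were listed at the RefSeq length and 3′ end in both libraries.

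The first question was what share of named miRNA counts miR-122 held in the fed-liver libraries. How counts of different miRNAs relate to their amounts in the tissue was not tested, so ranks and folds below refer to counts. miR-122-5p had 16356 counts in replicate 2 and 7668 in replicate 1. Of all named miRNA counts it held 3.04% in replicate 2, with a Clopper-Pearson 95% interval of 2.99 to 3.09, and 2.50% in replicate 1, with an interval of 2.45 to 2.56. The mean was 2.77% ± 0.380 (SD, n = 2). The intervals do not overlap, so the libraries differed by more than counting error, and they cover counting error only. These shares rest on 538023 named counts in replicate 2 and 306351 in replicate 1.

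miR-122-5p ranked 8 of 183 named miRNAs in replicate 2 and 10 of 165 in replicate 1. miRNAs above it held 70.0% of named counts in replicate 2 and 71.9% in replicate 1, and those below it held 27.0% and 25.6%. It had 292 times the median count of a named miRNA in replicate 2 and 127.8 times in replicate 1. miR-22-3p exceeded miR-122-5p by 11.2-fold in replicate 2 and 13.4-fold in replicate 1. Summing related names into 164 families left its rank by mean share at 8.

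The neighbours of miR-122-5p in the order of mean share were, above it, miR-181a-5p (3.63% ± 0.741), miR-30d-5p (4.09% ± 0.538) and miR-30a-5p (4.54% ± 0.668), and below it let-7c-5p (2.47% ± 0.678), miR-378a-3p (2.25% ± 0.383) and miR-423-5p (2.05% ± 0.116; SD, n = 2 each). The range over both libraries overlapped that of miR-122-5p for let-7c-5p and miR-378a-3p. Within each library miR-122-5p still exceeded miR-378a-3p, 1.21-fold in replicate 2 and 1.26-fold in replicate 1. let-7c-5p lay below miR-122-5p in replicate 2 and above it in replicate 1, and could not be placed apart from it. The ranges of the other 4 did not overlap that of miR-122-5p. let-7c-5p and its relatives let-7a and let-7f differ little in sequence, as do miR-30a and miR-30d, and the split of reads among them is uncertain. Over both libraries the levels closest to that of miR-122-5p, by Euclidean distance in log2 CPM, were those of miR-378a-3p (0.43), miR-181a-5p (0.55), miR-423-5p (0.62), let-7c-5p (0.65) and miR-27b-3p (0.86).

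miR-122-3p, the strand usually degraded, had 6 counts in replicate 2 and 3 in replicate 1. That was 0.00112% of named counts in replicate 2, with a 95% interval of 0.000409 to 0.00243, and 0.000979% in replicate 1, with an interval of 0.000202 to 0.00286. The mean was 0.00105% ± 9.61e-05. It ranked 140 in replicate 2 and 139 in replicate 1, and shared that count with 7 other miRNAs in each library. Its neighbours by mean share, miR-27b-5p, miR-125b-1-3p and miR-195a-3p above it miR-30e-3p level with it at the same counts, and miR-30c-2-3p and let-7b-3p below it, had between 2 and 9 counts a library. Their ranges overlapped that of miR-122-3p, and at this depth no order among them was detectable.

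**Figure D1:**
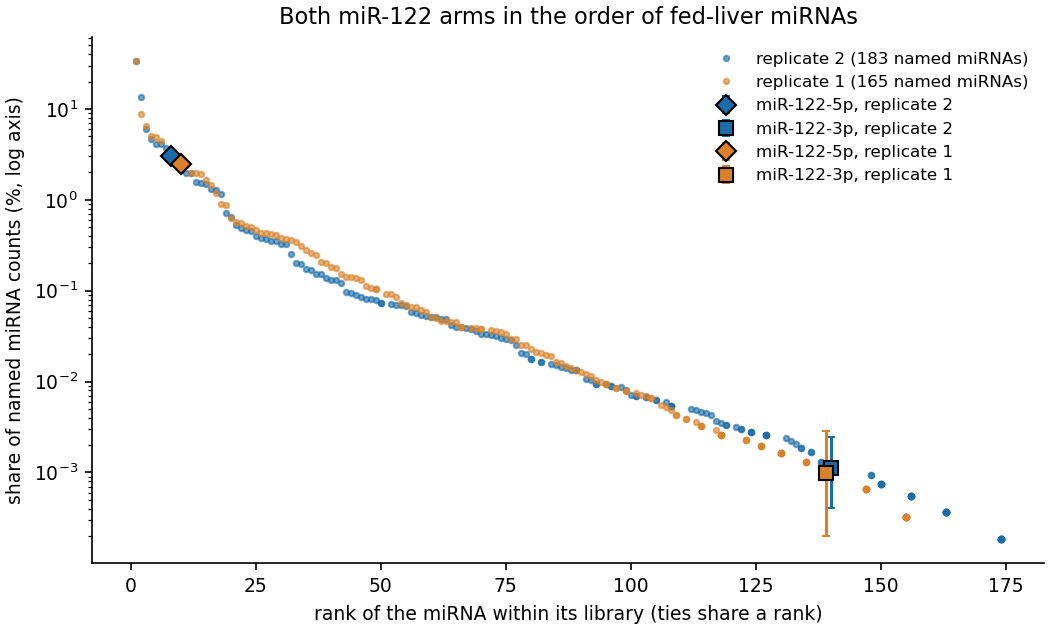
Share of named miRNA counts (percent, log axis) against the rank of each named miRNA within its library, for replicate 2 (blue) and replicate 1 (orange). Diamonds mark miR-122-5p at ranks 8 and 10 and squares miR-122-3p at ranks 140 and 139; bars are 95% Clopper-Pearson intervals.

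The second question was how the hairpin divided into its arms. Of the Mir122 counts, 99.96% lay on the 5p arm in both libraries, with 95% intervals of 99.92 to 99.99 in replicate 2 and 99.89 to 99.99 in replicate 1. The 5p arm exceeded the 3p arm 2726-fold in replicate 2 and 2556-fold in replicate 1. The arms differed in both libraries by a 2-sided exact binomial test against equal shares, adjusted over 47 hairpins with Benjamini-Hochberg and a threshold of 0.05. Of those hairpins 93.6% had a dominant arm in both libraries, and 42.6% were dominated by 5p, so the call itself is the common outcome. To be tested, a hairpin needed a name on each of its arms and a total of 20 counts or more per library. Hairpins with a single listed arm, 53 in replicate 2 and 45 in replicate 1, were left out and could not be ranked by bias. miR-26a-5p and miR-30d-5p, each with more counts than miR-122-5p in both libraries, had no 3p arm listed in either.

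Among the 47 hairpins with both arms listed, the size of the bias placed Mir122 at rank 3 from the most biased end. Its less counted arm took 0.0379% ± 0.00172 of counts, against a median of 1.29% over the 47 hairpins. Mir22 (0.00772% ± 7.46e-05) and Mir181a-2 (0.00973% ± 0.00110) were lower, and Mirlet7b (0.0389% ± 0.0211) and Mir30a (0.0401% ± 0.00146) were closest above it. All miR-181a-5p counts were set to Mir181a-2, though miR-181a-1-3p was also listed, with 6 counts in replicate 2 and 4 in replicate 1. Likewise all miR-30c-5p counts were set to Mir30c-2, with miR-30c-1-3p listed at 89 and 63. The shares of Mir181a-2 and Mir30c-2, and so the exact rank of Mir122, depend on that assignment. Set against Mir122 by Fisher's exact test within each library, 27 of the 46 other hairpins (58.7%) differed in both libraries after adjustment, each with a higher share of the less counted arm. No hairpin was called lower than Mir122 in both. For Mir22 the adjusted p of the 2-sided exact test was 0.00655 in replicate 2 and 0.0554 in replicate 1. For Mir30a and Mirlet7b, the 5p-dominated hairpins nearest to Mir122 in 5p share, no difference was detectable, and Mir30c-2 and Mir181a-2 did not pass in either library. Mir192, the next nearest, had 16 counts on 3p in replicate 2 and 2 in replicate 1, and differed from Mir122 in replicate 2 only (adjusted p = 7.2e-05 by the exact test). These comparisons between hairpins were added after the data had been examined.

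The arm shares of Mir122 did not differ detectably between libraries, with an adjusted p of 1 in Fisher's exact test, which called 8.51% of the hairpins. With 9 counts on the 3p arm in all, the less counted arm could have been anywhere from 0.0135% to 0.0798% in replicate 2 and from 0.00807% to 0.114% in replicate 1.

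**Figure D2:**
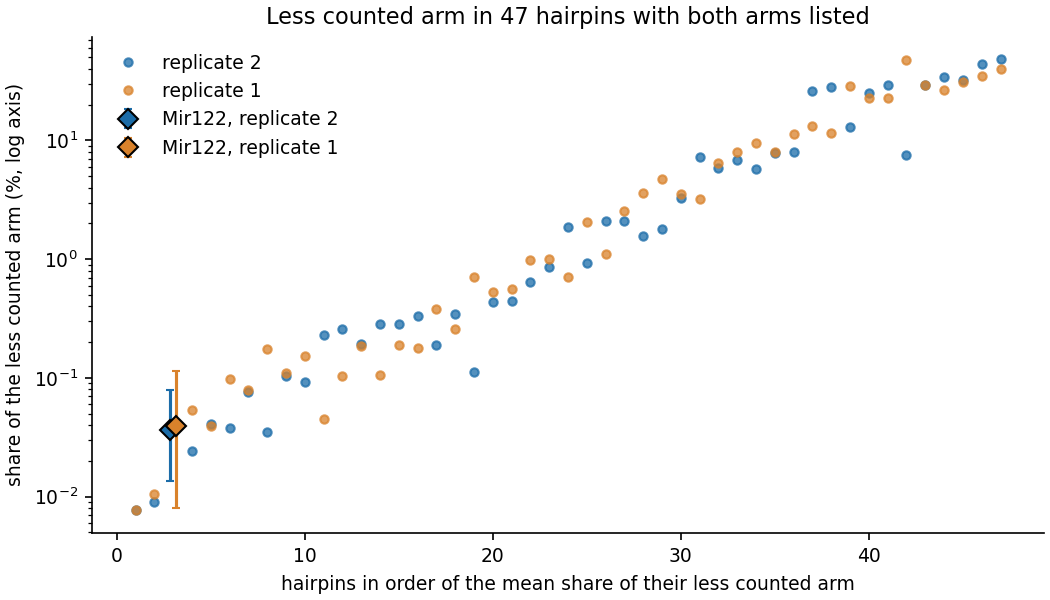
Share of the less counted arm (percent, log axis) in the 47 hairpins with both arms listed, ordered by its mean, for replicate 2 (blue) and replicate 1 (orange). Diamonds mark Mir122, at rank 3 with 0.0379% on average, with 95% Clopper-Pearson intervals.

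The listed form of each arm was then examined, that is its length and its ends as the files give them. miR-122-5p was listed with 23 bases in both libraries and the same start and end. Named arms had a median length of 22 bases, and 31 of 187 named loci in replicate 2 and 29 of 168 in replicate 1 were 23 bases long. Loci of that length held 13.0% of named counts in replicate 2 and 11.95% in replicate 1. All bases of the listed miR-122-5p matched the GENCODE M21 sequence of the Mir122 hairpin.

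miR-122-3p was among the shortest forms listed. It had 16 bases in replicate 2, where no other named locus was as short, and 17 in replicate 1, where 1 other was as short or shorter. Both forms began at the same base, and the 3′ end lay 1 base further on in replicate 1. That last base differed from the GENCODE hairpin, while the form in replicate 2 matched it throughout. Of 152 named arms listed at the same locus in both libraries, 145 kept their 5′ end and 128 their 3′ end, and 81.6% kept both, as miR-122-5p did. Both ends were kept by 70 of the 73 arms with at least 100 counts in each library, and by 54 of the 79 others, miR-122-3p not among them. The form listed for miR-122-3p rests on 6 and 3 counts. RefSeq mature positions (GRCm38.p6) could be matched for 160 arms in replicate 2 and 144 in replicate 1. Of these, 143 and 129 began at the RefSeq base, and 67 and 55 ended at it. Neither miR-122 arm was among the matched arms, as the RefSeq mature positions used here held none on chromosome 18. The listed ends of miR-122-5p and miR-122-3p were therefore not compared with a reference mature end.

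The structure given in the files pairs 18 of the 23 bases of miR-122-5p in both libraries, or 78.3%, against a median of 83.3% over named arms in replicate 2 and 82.6% in replicate 1. It pairs 14 bases of miR-122-3p in each library. The listed hairpin formed 18 base pairs, with 15 bases between the listed arms.

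In the files, positions count from 0 and were raised by 1. miR-122-5p then lay on GRCm38 chromosome 18, plus strand, from 65248866 to 65248888, which is base 6 to 28 of the 66-base Mir122 gene (65248861 to 65248926). miR-122-3p began at 65248904 and ended at 65248919 in replicate 2 and 65248920 in replicate 1, so base 44 to 59 or 60 of that gene.

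The files call the locus intergenic and name only Mir122 there, as exonic. In GENCODE M21 the hairpin lies inside the lincRNA AC157910.3 (chromosome 18, 65244287 to 65252621, plus strand), in exon 2 of its transcript AC157910.3-201, which spans 65245359 to 65252621. The hairpin starts 4574 bases after the first base of that gene. The shorter transcript AC157910.3-202 ends 2901 bases before the hairpin. Before the hairpin, the nearest genes beyond its host were Nedd4l, a ubiquitin ligase gene, whose end lies 31033 bases away, and the antisense genes AC102333.1 and A330084C13Rik. On the far side they were Alpk2, a kinase gene on the minus strand 16603 bases away, AC157910.5 and the pseudogene AC157910.2. RefSeq also lists a miRNA gene Mir122b of 59 bases within the span of Mir122, and no arm of that name was listed in either library. Loci the files call intergenic made up 56.1% of named loci in replicate 2 and 53.6% in replicate 1, and intronic ones 35.8% and 36.3%.

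**Figure D3:**
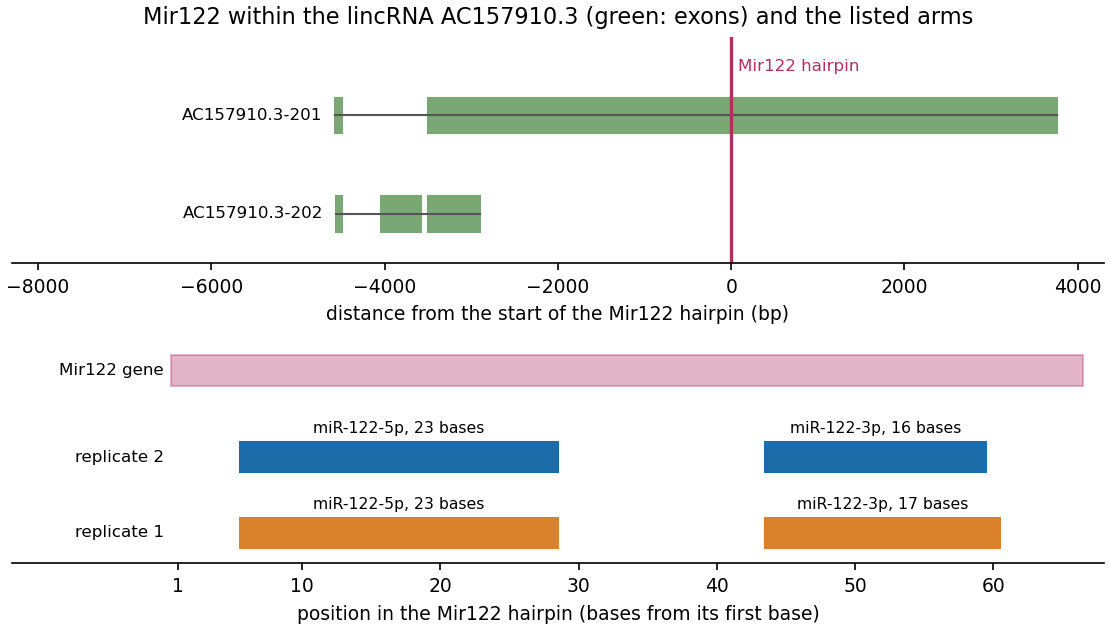
Top, exons (green) of both AC157910.3 transcripts against the distance from the start of the Mir122 hairpin in bp; the hairpin lies in exon 2 of AC157910.3-201 and past the end of AC157910.3-202. Bottom, the listed arms in replicate 2 (blue) and replicate 1 (orange) by position in the hairpin: the 5p form had the same 23 bases in both, and the 3p form ended 1 base later in replicate 1.

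The third question was how miR-122 stood to other hepatocyte miRNAs and to markers of other liver cells. Of 13 arms in the hepatocyte-enriched list, 11 were listed in replicate 2 and 8 in replicate 1. miR-122-5p made up 58.8% of the counts of that list in replicate 2 and 51.8% in replicate 1. Of the rest, miR-192-5p held 24.8% and 30.2%, miR-148a-3p 8.92% and 9.55%, and miR-194-5p 6.36% and 7.57%, in replicate 2 and replicate 1 in turn. miR-802-3p (34 counts), miR-101a-3p (26) and miR-802-5p (5) were listed in replicate 2 only, and miR-194-1-3p and miR-101b-3p in neither library.

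A ratio of 2 arms within a library needs no scaling between libraries. miR-122-5p exceeded miR-192-5p 2.37-fold in replicate 2 and 1.72-fold in replicate 1, a mean log2 ratio of 1.01 ± 0.33 (SD, n = 2). It exceeded miR-148a-3p 6.59-fold in replicate 2 and 5.43-fold in replicate 1, and miR-194-5p 9.25-fold and 6.85-fold. miR-148a-5p, the minor arm of its hairpin, lay 77.9-fold and 62.3-fold below miR-122-5p. Over the 7 other hepatocyte-enriched arms listed in both libraries the median log2 ratio was 6.28 in replicate 2 and 5.96 in replicate 1. That median is the value of miR-148a-5p, since 4 of the 7 are minor arms (miR-122-3p, miR-192-3p, miR-194-2-3p and miR-148a-5p), and the 3 major arms lay between 1.24 and 3.21 in replicate 2 and between 0.78 and 2.78 in replicate 1.

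These ratios were larger in replicate 2 than in replicate 1 for 4 of the 6 hepatocyte-enriched arms tested, by Fisher's exact test with p-values adjusted over all 130 miRNAs set against miR-122-5p. The 4 were miR-192-5p (adjusted p = 1.56e-40, exact test), miR-194-5p (9.39e-13), miR-148a-3p (2.87e-07) and miR-194-2-3p (0.00492), the last resting on 2 and 8 counts. For miR-148a-5p the log2 difference was 0.32 (adjusted p = 0.0957, exact test) and for miR-192-3p, with 16 and 2 counts, it was -1.91 (0.120), and neither passed. Over all 130, 56.9% passed, 66 with a larger ratio in replicate 2 and 8 with a smaller one. All of these tests share the counts of miR-122-5p and cover counting error only.

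Among the 15 most counted miRNAs, the ratio to miR-122-5p passed for 13 of the other 14, larger in replicate 2 for 10 and smaller for 3. miR-27b-3p did not pass, with miR-122-5p 1.55-fold above it in replicate 2 and a log2 difference between the libraries of 0.05. miR-378a-3p came close to the same relation, at 1.21-fold and 1.26-fold (adjusted p = 0.0403, exact test). miR-122-5p lay above let-7c-5p in replicate 2 (1.53-fold) and below it in replicate 1 (0.848-fold).

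Summed listed markers of other liver cells were below miR-122-5p in both libraries, as were the other hepatocyte-enriched arms. Unlisted arms add nothing to these sums, so each fold below is an upper bound for its full list. A miRNA can be unlisted without being rare: miR-16-5p had 1321 counts in replicate 1 and was not listed in replicate 2. In replicate 1 the stellate and mesenchymal sum (0.554% of named counts) was above miR-148a-3p (0.461%) and miR-194-5p (0.366%). In replicate 2 that sum (0.342%) lay between miR-148a-3p (0.461%) and miR-194-5p (0.329%). miR-122-5p exceeded the summed stellate and mesenchymal arms 8.89-fold in replicate 2 and 4.52-fold in replicate 1, and the immune arms 14.3-fold and 7.34-fold. It exceeded the endothelial arms 85.6-fold and 56.4-fold, and the biliary marker miR-200b-3p 100.3-fold and 127.8-fold. Of the stellate list 4 of 5 arms were listed, led by miR-145a-5p (702 counts in replicate 2 and 1060 in replicate 1) and miR-143-3p (1073 and 628), with miR-199a-5p (48) in replicate 2 only. Of the immune list 2 of 6 were, miR-150-5p (1059 and 953) and miR-146a-5p (81 and 91). Both endothelial arms were listed, miR-126a-5p (180 and 123) and miR-126a-3p (11 and 13), and 1 of 5 biliary arms. The erythroid list was represented by 14 counts of miR-486b-5p in replicate 2, and no neural arm was listed. The share of the immune list was 0.212% in replicate 2 and 0.341% in replicate 1, and that of the stellate list 0.342% and 0.554%. Against all other miRNAs, in the exact binomial test between libraries described below, both immune arms were called lower in replicate 2. In the stellate list miR-145a-5p alone was (log2 ratio -1.24), with miR-143-3p at 0.12 and not called. Such calls were common: of all 131 tested miRNAs 30 were called lower and 28 higher. Of those with at least 1000 counts summed, such as miR-150-5p and miR-145a-5p, 76.7% were called. The biliary miR-200b-3p was called higher in replicate 2 (0.79), and neither endothelial arm was called. The part of these cells in the difference in miR-122-5p was not tested.

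**Figure D4:**
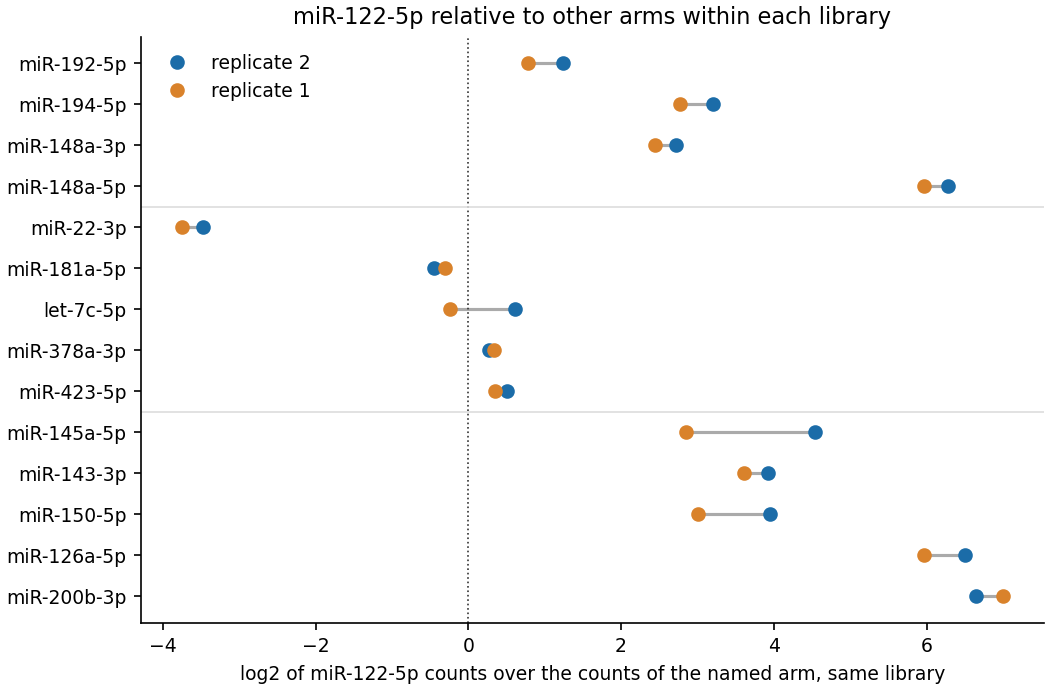
Log2 of the miR-122-5p counts over the counts of each named arm in the same library, for replicate 2 (blue) and replicate 1 (orange), with hepatocyte-enriched arms at the top, abundant arms in the middle and markers of other cells below. Points right of 0 are arms less counted than miR-122-5p; miR-192-5p lies at 1.24 in replicate 2 and 0.78 in replicate 1.

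The fourth question was whether miR-122 differed between the replicate libraries against all other miRNAs. At TMM effective library sizes the log2 ratio of replicate 2 to replicate 1 was 0.44 for miR-122-5p, or 1.36-fold, and an exact binomial test over 131 miRNAs gave an adjusted p of 8.04e-112. That test called 44.3% of miRNAs, and 21.4% as higher in replicate 2, so a call was common, and more so for deep miRNAs: 76.7% of the 43 with at least 1000 counts summed were called. By size of change miR-122-5p ranked 51 of 131, with 24 miRNAs above it in log2 ratio. The median absolute log2 ratio was 0.35, close to its own.

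The call covers counting error alone, and 1 group of 2 libraries allows no test of the difference against the spread between replicates. A negative binomial test with edgeR's common dispersion, a coefficient of variation of 0.229 between the libraries, gave miR-122-5p an adjusted p of 1 (unadjusted 0.347) and called 1 of the 131. Its dispersion was estimated over all miRNAs from the difference between the same libraries, so the loss of calls as a whole follows from how the test is built. For miR-122-5p it places the difference within the spread common to the tested miRNAs, and cannot decide more. Scaling by library totals put miR-122-5p at 0.28 while the median of all tested miRNAs moved to -0.19, against -0.02 with TMM. miR-122-3p had 9 counts summed, under the minimum of 10, and its log2 ratio of 0.31 was not tested. Without that minimum its unadjusted p was 1 by the exact binomial test.

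In the hepatocyte-enriched list the same test called 3 of 7 arms higher in replicate 2 (miR-122-5p, miR-148a-3p at 0.16, and miR-192-3p at 2.15 on 16 and 2 counts) and 1 lower (miR-194-2-3p, -2.33), with a median log2 ratio of 0.12. Over all 131 tested miRNAs 21.4% were called higher and 44.3% in either direction. The log2 ratios of miR-192-5p (-0.02) and miR-194-5p (0.01) missed the threshold. With library totals miR-122-5p was the 1 arm called higher and 3 were called lower, miR-192-5p (-0.18), miR-194-5p (-0.15) and miR-194-2-3p (-2.48). Under that scaling 19 of the 131 were called higher and 45 lower.

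Lipid and cholesterol miRNAs, the pathway in which miR-122 is best known, had 7 of 17 arms listed, all 7 in both libraries. Here 3 were higher in replicate 2, miR-378a-3p (0.51), miR-27b-3p (0.40) and miR-148a-3p, and 2 were lower, miR-183-5p (-0.48) and miR-30c-5p (-0.15), while miR-378a-5p (0.22) and miR-34a-5p (-0.33) did not pass. The background was 44.3% called in either direction over all tested miRNAs and 76.7% among those with at least 1000 counts summed. With library totals miR-148a-3p was at 0.00 and no longer called. miR-33, which is encoded in Srebf2 and acts on cholesterol export, was not listed in either library. The list median was 0.16, against -0.02 for all tested miRNAs. That median is the value of miR-148a-3p, an arm also in the hepatocyte-enriched list, and the called arms of the list went both ways.

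**Figure D5:**
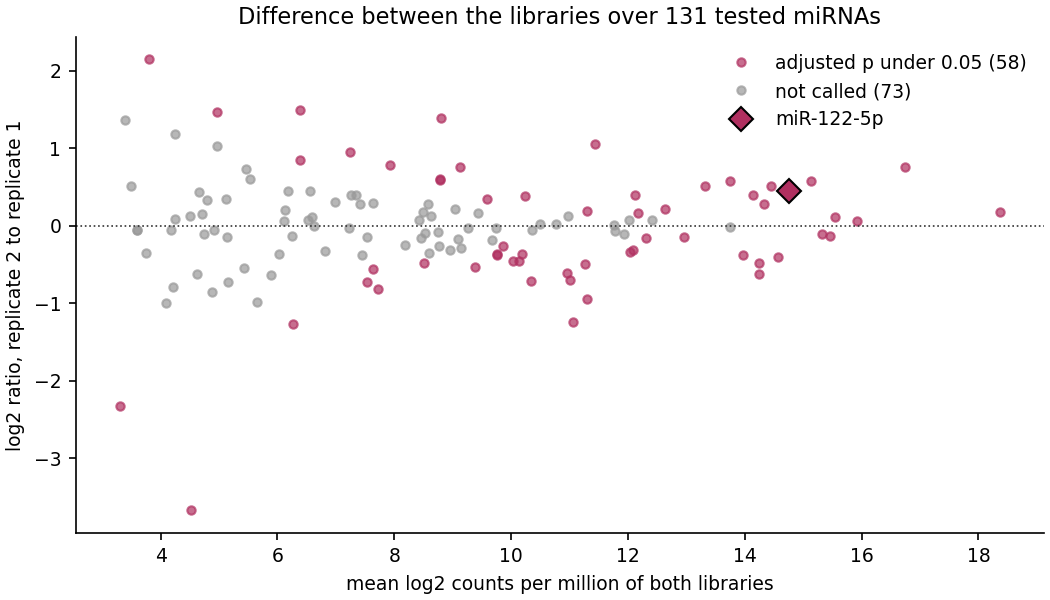
Log2 ratio of replicate 2 to replicate 1 against mean log2 CPM for the 131 tested miRNAs, with those past an adjusted p of 0.05 in the exact binomial test in red and the rest in grey. The diamond marks miR-122-5p at 0.44, inside the vertical spread of miRNAs of similar level.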

How the data were processed

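Per the labels' protocols, libraries of 1 group of fed livers were prepared with Illumina's TruSeq kit for small RNA. Bowtie 1.0.1, cutadapt 1.5, FastQC 0.11.2 and GRCm38 (mm10) appear in the submitters' processing notes. Which program called the loci, and with what filters, is not stated. The deposited files hold the authors' raw read counts per called locus, with 220 loci in replicate 2 and 200 in replicate 1. Unnamed loci held 2.46% and 5.02% of counts and were left out of totals and tests. For names with several loci the most counted locus was used. The files list called loci only, so an unlisted miRNA was not treated as 0 in the main test.

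Counts were compared in Python 3.11.15 with scipy 1.17.1 (exact binomial and Fisher's exact tests, 2-sided, Benjamini-Hochberg adjusted, threshold 0.05). TMM factors and the common dispersion came from edgeR 4.0.16, with DESeq2 1.42.0 size factors as an alternative. Log2 ratios used a prior count of 0.5, and a tested miRNA needed a listed locus in each file and a sum of 10 counts or more. No quasi-likelihood test was run, as 1 group gives no contrast. Intervals are Clopper-Pearson at 95% and cover counting error only.

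The members, lists and naming rules were chosen with earlier results of these data known. The miRNAs named are the neighbours of miR-122 in level, those closest to it over both libraries, listed hepatocyte-enriched arms, the leading members of the other lists, the hairpins closest to Mir122 and the genes nearest its locus. miR-27b-3p and let-7c-5p in the ratios, and the lipid arms beyond the first 3, were chosen for naming with their values in view. The sequences of miR-122 are not reported here.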

Additional observations from a re-analysis of the deposited data

How the results depend on the processing

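Without miR-22-3p in the denominator the mean share of miR-122-5p was 4.19% and that of miR-122-3p 0.00158%. Adding 1 count to each arm gave a 5p share of the Mir122 hairpin of 99.95%. Leaving out a replicate put the rank of miR-122-5p at 8 or 10. With 2 replicates, a share or a ratio without either replicate is that of the other library and always lies within 1 SD of the mean, so this is no sign of stability. With the negative binomial test the log2 ratio of miR-122-5p was 0.44 and did not pass, and 1 miRNA was called in place of 58. The dispersion comes from the same 2 libraries, so the loss of calls as a whole is built into the test. The test only places miR-122-5p within the spread common to the tested miRNAs. Under the other settings of the exact test 55 to 76 miRNAs were called, and the log2 ratio of miR-122-5p stayed called at 0.28 to 0.49. miR-122-3p, with 9 counts, gave no value at a minimum of 50 counts. No paired analysis was possible because there is a single group. Depth limits miR-122-3p and every statement on arm shares below 0.1%.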

Other observations

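The hairpin listed with miR-122-5p had the same span of 56 bases in both libraries, but not the same sequence. It differed from the GENCODE M21 sequence at 3 bases in each library, and between the libraries at 3 bases. In replicate 2, 2 of the bases that differed from GENCODE lay between the listed arms and 1 beyond the 3′ end of miR-122-3p. In replicate 1, 2 lay between the arms and 1 was the last base of the listed miR-122-3p. Of 128 hairpins with the same listed span in both libraries, 74 differed in sequence between them, by at most 3 bases. The hairpin listed with miR-122-3p had 52 bases in replicate 2 and 54 in replicate 1. The files do not say how the hairpin sequences were built, and no cause was tested.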
